A study of Mus musculus with 6 samples.

Results

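The EGR, NR4A and NFAT genes encode transcription factors that carry the signal of the T cell receptor into the nucleus. This account covers 10 genes of the 14481 in the deposited count table: Nr4a1, Nr4a2, Nr4a3, Egr1, Egr2, Egr3, Nfatc1, Nfatc2, Nfatc3 and Arc. The first 9 were taken by family name, and Arc was chosen by its measured level, which was lower in STAT3+ CM. The difference in Arc is therefore described without a test.

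The cells were sorted CD8+ T cells, the cytotoxic arm of the T lymphocytes, of wild-type (WT) genotype. Both groups were activated with plate-bound antibody to CD3e (1 µg/ml), soluble antibody to CD28 (1 µg/ml) and mouse interleukin 2 (0.1 µg/ml) in RPMI with 10% serum. After day 1 they received conditioned medium (CM) from astrospheres that were pSTAT3+ (STAT3+ CM, 3 libraries) or pSTAT3- (STAT3- CM, 3 libraries), where pSTAT3 is the phosphorylated form of the transcription factor STAT3, and total RNA was taken at day 3. The question is how the secreted products of pSTAT3+ and of pSTAT3- astrospheres compare in their effect on CD8+ T cells. The labels used here give no strain, age, sex or pooling of the mice, and no library of resting cells or of cells without CM was analysed here.

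In resting T cells NFAT proteins sit phosphorylated in the cytoplasm. Calcium that enters after receptor engagement activates the phosphatase calcineurin, which strips the phosphates and lets NFAT enter the nucleus, so that NFAT activity is set by location more than by transcript level. EGR and NR4A genes are immediate early genes: their transcripts appear soon after stimulation through ERK, serum response factor, CREB and MEF2. EGR2 and EGR3 are known in T cells for restraining activation and for anergy, and NR4A factors for exhaustion of CD8+ T cells. Arc is best known as an immediate early gene of neurons, whose protein acts at synapses.

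Total counts ran from 43346089 to 53630514 per library. All 10 genes passed the filter on low counts, with between 274 and 13505 reads in a library. On the first 2 principal components of all tested genes, STAT3+ CM replicate 1 and STAT3- CM replicate 3 stood apart from the other libraries, with scores of -38.1 on the second and 39.6 on the first component. CD8+ T cell markers were abundant in both groups, Cd8a at 908 ± 138 CPM in STAT3+ CM and 847 ± 80.3 CPM in STAT3- CM and Lck at 561 ± 28.4 CPM in STAT3+ CM and 516 ± 21.5 CPM in STAT3- CM (SD, n = 3 each). CPM is the read count scaled by library total and a TMM factor. Log2 fold changes are STAT3+ CM over STAT3- CM with their standard error (SE). Of 10 CD8+ T cell markers 9 had positive values and 1 a negative one, where 50.2% of all genes tested were positive. Because no resting cells were among the libraries, the name activation-induced could not be checked here.

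Start-site regions of 4 of the genes are printed because the 3 NR4A genes share a sequence feature and Egr2 varied most between replicates. Each holds 250 bases before and 50 after a RefSeq transcript start on GRCm38.p6, 5′ to 3′ on the strand of the gene. The regions are chr15:101266596-101266895 (+ strand), chr2:57123954-57124253 (- strand), chr4:48045055-48045354 (+ strand) and chr10:67537619-67537918 (+ strand). The Nr4a1, Nr4a2 and Egr2 starts coincide with the start of a principal GENCODE transcript, and the Nr4a3 start lies 152 bases from it. Capitals mark every match, on either strand, to the CREB core TGACG, the NFAT core GGAAA, the EGR sites GCGTGGGCG and GCGGGGGCG, the NR4A site AAAGGTCA, the AP-1 site TGANTCA and the CArG box of serum response factor. The full CREB site TGACGTCA, which contains the core, was searched as well and has no match in these 4 regions.
Nr4a1: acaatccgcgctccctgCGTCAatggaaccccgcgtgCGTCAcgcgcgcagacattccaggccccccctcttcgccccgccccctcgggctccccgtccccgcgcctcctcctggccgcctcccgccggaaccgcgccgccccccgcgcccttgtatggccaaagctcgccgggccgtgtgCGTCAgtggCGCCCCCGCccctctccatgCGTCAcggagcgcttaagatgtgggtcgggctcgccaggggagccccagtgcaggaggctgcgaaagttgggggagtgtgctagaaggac
Nr4a2: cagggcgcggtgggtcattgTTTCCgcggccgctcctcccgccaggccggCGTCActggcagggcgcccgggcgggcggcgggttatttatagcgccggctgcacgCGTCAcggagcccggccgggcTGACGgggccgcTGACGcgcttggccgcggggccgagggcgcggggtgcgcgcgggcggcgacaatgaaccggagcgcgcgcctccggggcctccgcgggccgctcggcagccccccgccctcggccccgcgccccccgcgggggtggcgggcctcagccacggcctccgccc
Nr4a3: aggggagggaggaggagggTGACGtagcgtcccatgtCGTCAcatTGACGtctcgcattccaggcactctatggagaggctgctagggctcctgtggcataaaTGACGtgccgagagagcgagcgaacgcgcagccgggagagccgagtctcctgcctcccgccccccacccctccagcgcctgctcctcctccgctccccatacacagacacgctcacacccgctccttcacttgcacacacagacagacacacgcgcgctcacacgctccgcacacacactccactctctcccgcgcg
Egr2: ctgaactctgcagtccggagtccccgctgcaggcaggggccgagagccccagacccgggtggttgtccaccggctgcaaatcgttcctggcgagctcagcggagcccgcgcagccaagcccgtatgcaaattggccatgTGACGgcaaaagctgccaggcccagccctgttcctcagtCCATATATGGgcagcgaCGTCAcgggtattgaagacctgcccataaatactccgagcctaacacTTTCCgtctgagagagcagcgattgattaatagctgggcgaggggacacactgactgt

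Each of the 3 NR4A regions holds 4 matches to the CREB core, whereas 20.8% of 32851 mouse start-site regions of the same length hold at least 1 and 0.231% hold at least 4. The Nr4a1 region also has an EGR site, GCGGGGGCG, on the opposite strand, which 2.91% of regions hold. The Egr2 region has a CArG box, a motif that 1.63% of regions hold, flanked by 2 CREB cores. The NFAT core in the Nr4a2 and Egr2 regions is common, in 61.3% of regions. A match is a run of letters and not a measured binding site. Egr1 and Nfatc1 sequences are not shown.

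Levels can be set side by side between genes only per transcript length, here as CPM per kb of the longest annotated transcript. On that scale Nr4a1, the NR4A factor also called Nur77 and widely used as a reporter of T cell receptor signalling, had the highest level of the 10, at 72.7 ± 4.35 CPM per kb in STAT3+ CM and 64.4 ± 15.1 CPM per kb in STAT3- CM (SD, n = 3 each). Its lowest library (50.7) lay just above the highest of Nr4a3 (50.1). Nr4a3 averaged 37.5 CPM per kb over the 6 libraries, Nr4a2 32.7, Nfatc1 24.7, Nfatc3 20.9, Egr2 17.1, Egr1 15.8 and Egr3 14.8. From Nr4a3 down to Egr3 each gene overlapped the next, so the order of neighbours was within the spread of the libraries. Genes farther apart in the order did not all overlap. The lowest library of Nr4a3 (28.4) lay above the highest of Egr2 (26.1), Nfatc3 (23.4), Egr3 (20.5) and Egr1 (20.3). Arc followed at 5.16 CPM per kb and Nfatc2 at 3.65, with every library of both below every library of Egr3 and overlap between them. Nfatc2 encodes NFAT1, known as the main NFAT of resting T cells, and Nfatc1 encodes NFAT2, whose short form is induced on activation. Gene counts do not separate the isoforms. With the median length of the annotated transcripts in place of the longest, Nr4a1 stayed first at 103.8 CPM per kb. Nr4a3 then stood at 67.4, Egr2 at 56.2, Nfatc3 at 43.7 and Nfatc2 at 9.08. At that length the libraries of Nr4a3 overlapped those of Nr4a1 and of Egr2, so these separations depend on the longest transcript.

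**Figure D1:**
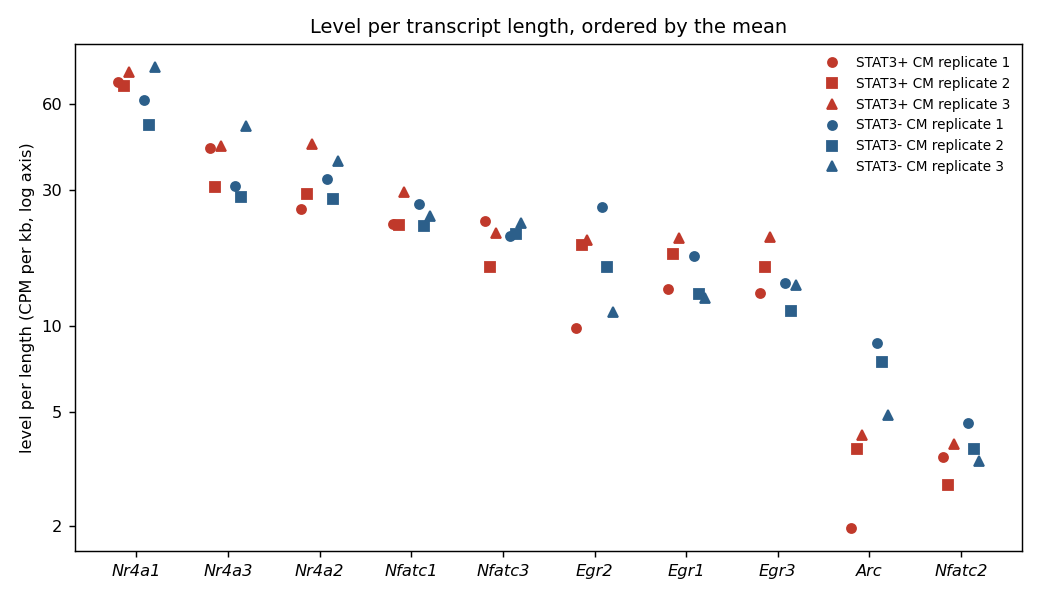
Level per transcript length (CPM per kb, log axis) of the 10 genes in each library, ordered by the mean over 6 libraries. Red symbols are STAT3+ CM and blue symbols STAT3- CM, each symbol shape a replicate number. Nr4a1 averaged 68.5 and Nfatc2 3.65 CPM per kb.

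Between the media, no EGR, NR4A or NFAT gene differed beyond the spread between replicates; with 3 libraries a group this does not show that the levels were alike. Of the 9 genes taken by name, 0 passed an adjusted p of 0.05 by the quasi-likelihood test of edgeR, adjusted by Benjamini and Hochberg over 14319 genes, where the share of all genes called was 0.00%. At an unadjusted p under 0.05 stood 0 of the 9, against 3.64% of all genes, and DESeq2 and limma-voom called 0 of the 9 as well. DESeq2 called 0.335% of all genes. In each of the 9 the libraries of the groups overlapped, against 7.95% of all genes in which they did not. Log2 fold changes ran from -0.21 to 0.33, 5 positive and 4 negative, with a median of 0.021 beside 0.00076 over all genes tested. In bulk RNA, fewer cells with a transcript and less transcript per cell cannot be told apart.

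**Figure D2:**
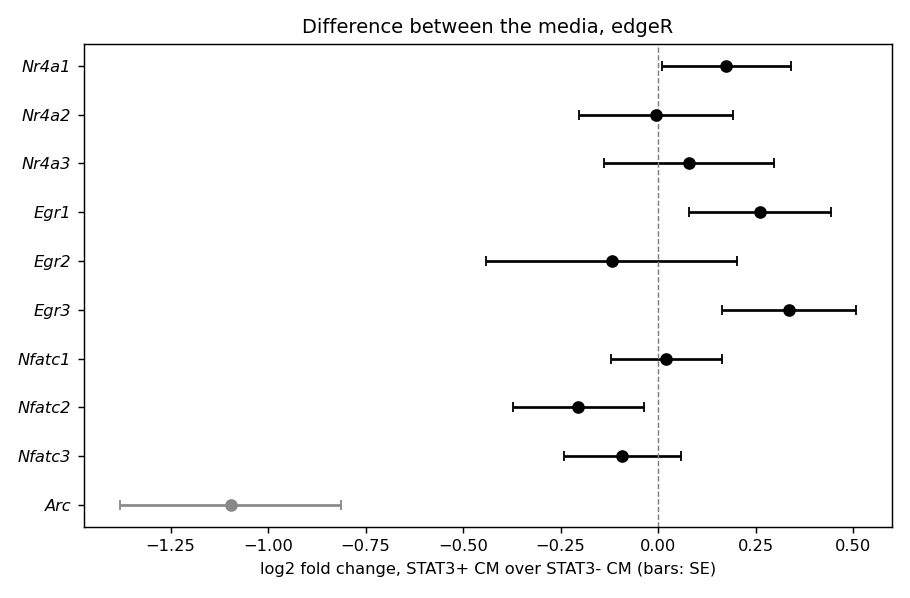
Log2 fold change, STAT3+ CM over STAT3- CM, with its SE for the 10 genes. The 9 genes in black lie between -0.21 and 0.33; Arc, in grey because it was chosen for its value, lies at -1.10.

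The NR4A receptors are orphan nuclear receptors that bind DNA without a known physiological ligand. Nr4a1 stood at 183, 176 and 198 CPM in STAT3+ CM and at 158, 130 and 206 CPM in STAT3- CM (edgeR log2 fold change 0.18 with SE 0.17, adjusted p = 0.989). The highest and the lowest library both belonged to STAT3- CM, and all 3 STAT3+ CM libraries lay between them. Nr4a3, also called NOR1, stood at 241, 176 and 244 CPM in STAT3+ CM and at 177, 162 and 287 CPM in STAT3- CM (edgeR log2 fold change 0.079 with SE 0.22, adjusted p = 0.993). STAT3- CM replicate 3 was again the highest and replicate 2 the lowest. Nr4a2, also called NURR1, stood at 91.7, 104 and 155 CPM in STAT3+ CM and at 117, 99.6 and 135 CPM in STAT3- CM (edgeR log2 fold change -0.0055 with SE 0.20, adjusted p = 0.9996). Here STAT3+ CM held both ends of the range. The sign of the Nr4a2 and Nr4a3 values turned when single libraries were left out, with ranges of -0.26 to 0.14 and -0.081 to 0.38.

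**Figure D3:**
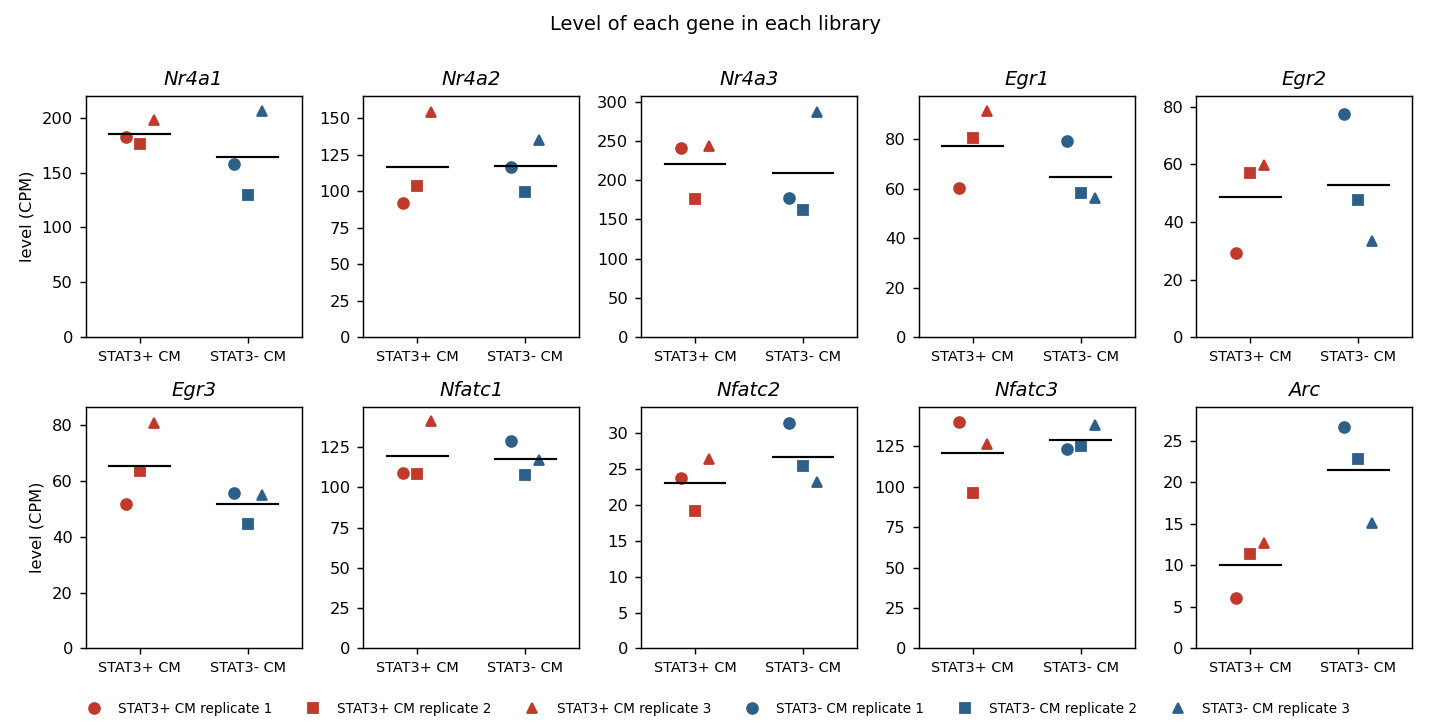
Level (CPM) of each gene in each library, STAT3+ CM (red) left of STAT3- CM (blue), with the mean of 3 libraries as a bar and a symbol shape for each replicate number. The groups overlap in every panel but that of Arc, where STAT3+ CM lies between 6.04 and 12.7 CPM and STAT3- CM between 15.0 and 26.6 CPM.

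The EGR proteins are zinc-finger factors that bind a GC-rich site. Egr3 had the largest positive value of the 10 genes. It stood at 51.6, 63.4 and 80.6 CPM in STAT3+ CM and at 55.8, 44.5 and 54.9 CPM in STAT3- CM (edgeR log2 fold change 0.33 with SE 0.17, adjusted p = 0.989). STAT3+ CM replicates 2 and 3 lay above all STAT3- CM libraries, while replicate 1 lay below 2 of them. Egr1 stood at 60.4, 80.4 and 91.2 CPM in STAT3+ CM and at 79.1, 58.3 and 56.3 CPM in STAT3- CM (edgeR log2 fold change 0.26 with SE 0.18, adjusted p = 0.989). As in Egr3, STAT3+ CM replicates 2 and 3 were the highest libraries. Egr2 stood at 29.3, 56.9 and 59.6 CPM in STAT3+ CM and at 77.4, 47.7 and 33.4 CPM in STAT3- CM (edgeR log2 fold change -0.12 with SE 0.32, adjusted p = 0.993). Both its lowest and its next lowest library were the 2 that stood apart on the principal components. The value was 0.26 without STAT3- CM replicate 1 and 0.14 without STAT3+ CM replicate 1, and -0.10 without both STAT3+ CM replicate 1 and STAT3- CM replicate 3. Egr4, the remaining gene of the family, was close to the detection floor at 0.308, 1.47 and 1.25 CPM in STAT3+ CM and 1.61, 1.47 and 0.433 CPM in STAT3- CM, and its low libraries were those of Egr2.

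Of the NFAT genes, Nfatc1 was the steadiest, at 109, 108 and 141 CPM in STAT3+ CM and 129, 107 and 117 CPM in STAT3- CM (edgeR log2 fold change 0.021 with SE 0.14, adjusted p = 0.999). Its highest library was 1.31-fold its lowest, against 1.46-fold for Nfatc3 and 1.65-fold for Nfatc2. Nfatc2 stood at 19.1 to 26.4 CPM in STAT3+ CM and 23.1 to 31.5 CPM in STAT3- CM (edgeR log2 fold change -0.21 with SE 0.17, adjusted p = 0.989). Nfatc3, which encodes NFAT4, stood at 96.3 to 140 CPM in STAT3+ CM and 124 to 138 CPM in STAT3- CM (edgeR log2 fold change -0.092 with SE 0.15, adjusted p = 0.989). Esrp2 overlaps Nfatc3 on the opposite strand but had only 257 counts over all libraries. Nfat5, the family member that responds to osmotic stress and not to calcineurin, stood at 82.4, 71.5 and 177 CPM in STAT3+ CM and 135, 108 and 197 CPM in STAT3- CM (edgeR log2 fold change -0.41 with SE 0.33, adjusted p = 0.989). It was highest in replicate 3 of both groups. Nfatc4 had no row among the genes used here.

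The members differed in how far replicates of the same medium lay from each other. The SD of log2 CPM within a group was 0.59 for Egr2, larger than that of 99.5% of the 2609 genes within 1.5-fold of its mean level, whose median was 0.16. It was 0.51 for Arc, above 95.7% of genes of like level, 0.37 for Nr4a3, above 96.9%, and 0.32 for Nr4a2, above 94.2%. Egr1 (0.29), Egr3 (0.26) and Nr4a1 (0.25) lay above 88.6%, 83.5% and 82.6%. The NFAT genes among the members were nearer the typical gene, with Nfatc1 at 0.18 above 58.2%, and Nfatc2 (0.23) and Nfatc3 (0.21) each above 70.9%. Nfat5, which is not a member, was at 0.59, above 99.5%. The SE of the log2 fold change followed nearly the same order, from 0.32 for Egr2 to 0.14 for Nfatc1 beside a median of 0.18 over all genes, so a given difference was harder to detect in Egr2 than in Nfatc1.

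**Figure D4:**
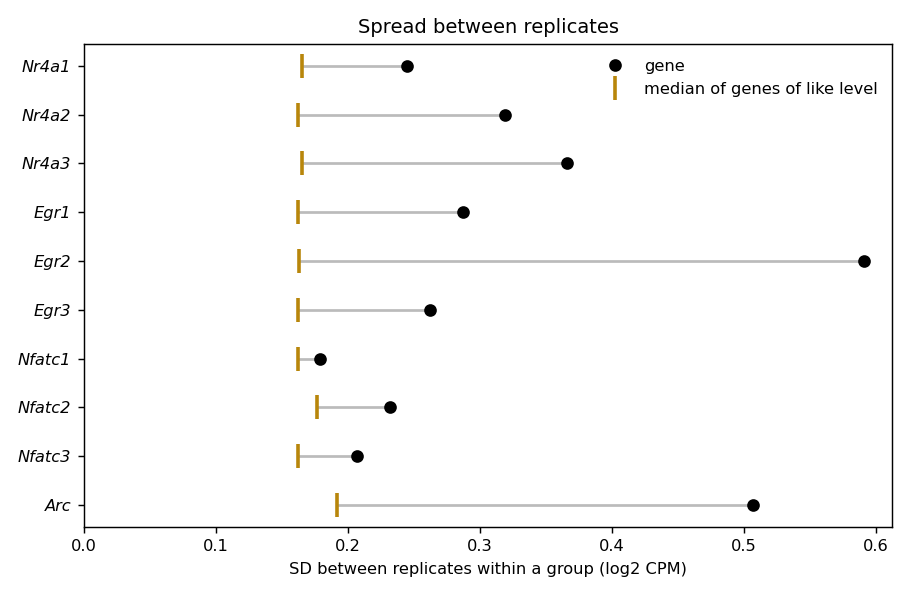
SD of log2 CPM between replicates within a group for each gene (black points) and the median SD of genes within 1.5-fold of its mean level (gold bars). Egr2 (0.59) and Arc (0.51) lie farthest from genes of like level and Nfatc1 (0.18) nearest.

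Nr4a1 and Nr4a3 had the highest r over the 6 libraries among the pairs of members, but no pair passed adjustment. With the group means removed r was 0.89 for this pair. That was below Egr2 with Arc (0.96), Egr1 with Egr2 (0.95) and Nr4a2 with Egr3 (0.94). Over the 6 libraries, log2 CPM of Nr4a1 and Nr4a3 had Pearson's r = 0.87 (exact permutation p = 0.0167) and Spearman's rho = 0.94 (exact permutation p = 0.0167), and r was 0.81 without the 2 libraries farthest from the median. Both start-site regions printed above hold 4 CREB cores, but so does that of Nr4a2, whose highest r was with Nfatc1 (0.84, exact permutation p = 0.0444). Egr1 and Egr3 had r = 0.84 (exact permutation p = 0.0194) and rho = 0.83 (exact permutation p = 0.0583). After adjustment over all 45 pairs of members, 0 had an adjusted p under 0.05, with adjusted p = 0.436 for Nr4a1 with Nr4a3 and for Egr1 with Egr3. The 45 include the pairs with Arc, which are not read as tests. The genes most like Nr4a1 by r over the 6 libraries were Inafm2 (0.99) and Zdhhc23 (0.98). Those most like Egr2 were Bfar (0.998) and Slamf1 (0.99), and those most like Nfatc1 were Usp31 (0.99) and Frmd4a (0.98). These are the extremes of 9321 genes compared over 6 libraries and are given as descriptions.

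Arc stood at 6.04, 11.4 and 12.7 CPM in STAT3+ CM and at 26.6, 22.8 and 15.0 CPM in STAT3- CM, from 274 to 1207 reads. Every STAT3+ CM library lay below every STAT3- CM library, which holds in that direction for 4.18% of all genes tested and follows here from how Arc was chosen. The means were 10.0 ± 3.52 CPM in STAT3+ CM and 21.5 ± 5.92 CPM in STAT3- CM (SD, n = 3 each), a log2 fold change of -1.10 (SE 0.28), and 0.845% of all genes had a value as low or lower. Leaving out single libraries gave -1.31 to -0.84. The gap between the nearest libraries of the groups, 12.7 against 15.0 CPM, was smaller than the range within either group.

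Arc and Egr2 shared their order of libraries inside each medium. In STAT3+ CM both were lowest in replicate 1 and highest in replicate 3, and in STAT3- CM both were highest in replicate 1 and lowest in replicate 3. Egr1 had the same order in both media. So did genes outside the members, among them Tnf, Ccl3, Tnfsf11, Crtam, Spry2, Fosl1 and Nrp1. The lowest libraries in this order, STAT3+ CM replicate 1 and STAT3- CM replicate 3, were those that stood apart on the principal components. The order is therefore not particular to Arc and Egr2, and its share over all genes was not counted. Over the 6 libraries together log2 CPM of Arc and Egr2 had Pearson's r = 0.65 and Spearman's rho = 0.54. Without the 2 libraries farthest from the median r was 0.28, and with the group means removed it was 0.96. These correlations are given as descriptions with no test, because Arc was chosen for its difference between the media. The CPM of Arc was 20.6%, 19.97% and 21.3% of that of Egr2 in STAT3+ CM, against 34.4%, 47.9% and 45.0% in STAT3- CM, a ratio not corrected for length. Within STAT3+ CM the ratio was nearly constant while both genes varied about 2-fold. Relative to Egr1, Arc reached 9.99%, 14.1% and 13.9% in the STAT3+ CM libraries, against 33.7%, 39.2% and 26.7% in the STAT3- CM libraries. Relative to Egr3 it reached 11.7%, 17.9% and 15.7% in the STAT3+ CM libraries, against 47.8%, 51.3% and 27.4% in the STAT3- CM libraries. The ratios rest on the value for which Arc was chosen and are not tested.

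**Figure D5:**
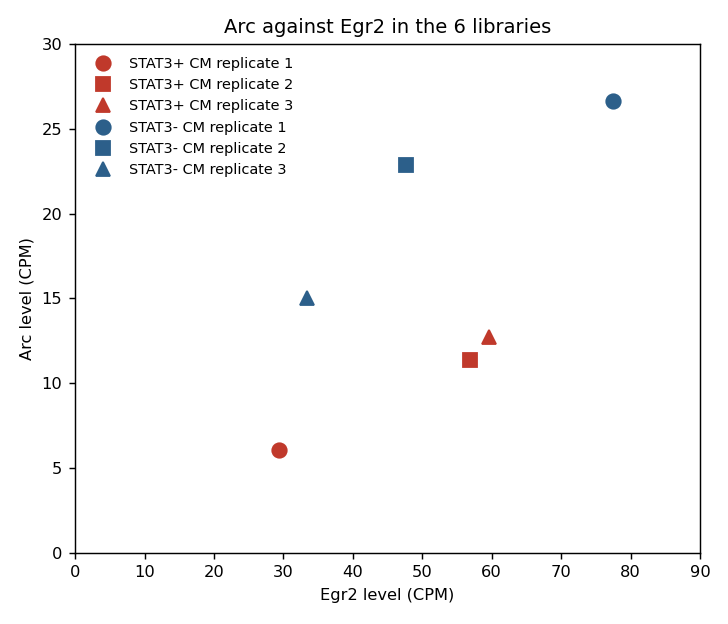
Level of Arc (CPM) against that of Egr2 (CPM) in the 6 libraries, red for STAT3+ CM and blue for STAT3- CM with a symbol shape for each replicate number. The STAT3+ CM libraries lie near a line at 20.6% ± 0.669 of the Egr2 level and the STAT3- CM libraries at 42.5% ± 7.11 (SD, n = 3 each).

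Arc is also expressed in mouse dendritic cells that migrate from the skin, so markers of such cells are given beside it. Of 14 dendritic cell markers 8 had a row, and 6 of the 8 had negative log2 fold changes. Their summed level, 590 to 640 CPM in STAT3+ CM and 474 to 786 CPM in STAT3- CM, was mostly Ccr7, which T cells express too. Cd74, the class II invariant chain, stood at 36.1, 44.7 and 36.1 CPM in STAT3+ CM and 79.1, 94.2 and 50.7 CPM in STAT3- CM. The 3 class II chains with a row did not move alike. H2-Aa stood at 0.925, 1.80 and 1.07 CPM in STAT3+ CM and 4.77, 5.28 and 2.40 CPM in STAT3- CM, and H2-Eb1 at 2.36, 2.98 and 2.98 CPM in STAT3+ CM and 5.12, 6.11 and 4.14 CPM in STAT3- CM. H2-Ab1 stood at 8.66, 8.29 and 7.67 CPM in STAT3+ CM and 5.23, 8.005 and 9.27 CPM in STAT3- CM, with a log2 fold change of 0.13. Zbtb46, a factor of classical dendritic cells, had a log2 fold change of -0.61, Batf3 of -0.14, the integrin gene Itgax of -0.036 and Ccr7 of 0.13. The groups lay apart in 4 of the 8, Cd74, H2-Aa, H2-Eb1 and Zbtb46, all lower in STAT3+ CM, a pattern held by 4.18% of all genes. Within STAT3- CM, replicate 3 was the lowest library in Cd74, H2-Aa and H2-Eb1, as in Arc, and the highest in Ccr7, Zbtb46, H2-Ab1 and Itgax. The cells had been sorted for CD8 before activation, and which cells held these transcripts was not tested. Flt3, Clec9a, Xcr1, Siglech, Cd209a and Clec10a had no row among the genes used here. Of 14 astrocyte and neural markers 5 had a row, 4 of them with negative values, and their sum was 11.2 to 19.97 CPM in STAT3+ CM and 19.1 to 22.1 CPM in STAT3- CM, led by Slc1a2 and Tubb3. Map2 was the one of the 5 whose groups lay apart, with a log2 fold change of -0.70. Gfap, S100b, Aqp4, Sox2 and Snap25 were among the 9 with no row. The part of these transcripts in the Arc difference was not tested. Among the genes most like Arc by r over the 6 libraries was S100a4, which encodes a calcium-binding protein (0.99), and 93 of 9321 genes, or 0.998%, had an r of at least 0.9.

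Other marker lists are given by their sums. B cell markers with a row were Ighm and Cd79b, summing to 308 to 348 CPM in STAT3+ CM and 279 to 327 CPM in STAT3- CM, nearly all Ighm. Cd79b, a chain of the B cell receptor, stood at 10.9, 10.9 and 11.8 CPM in STAT3+ CM and 7.40, 7.71 and 10.7 CPM in STAT3- CM. Its groups lay apart by a narrow margin, higher in STAT3+ CM, a pattern held by 3.78% of all genes. Cd79a, Ms4a1, Pax5 and Cr2 had no row. Macrophage and monocyte markers summed to 109 to 204 CPM in STAT3+ CM and 93.4 to 149 CPM in STAT3- CM, nearly all Ly6c2, which activated CD8+ T cells express, followed by Cd68. CD4 T cell markers, led by Zbtb7b and Foxp3, summed to 12.9 to 18.3 CPM in STAT3+ CM and 9.92 to 24.0 CPM in STAT3- CM. The NK cell list, led by Eomes and Klre1, summed to 128 to 143 CPM in STAT3+ CM and 111 to 147 CPM in STAT3- CM, nearly all Eomes, which CD8+ T cells express too. Of 7 neutrophil markers only Cxcr2 had a row, at 0.507 to 1.10 CPM in STAT3+ CM and 0.684 to 1.09 CPM in STAT3- CM.

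The genes around these factors were read from 9 lists of signalling steps, partners and targets, with 141 different genes tested. By edgeR's quasi-likelihood test 0 of the 141 passed an adjusted p of 0.05, beside 0.00% of all genes, and DESeq2 and limma-voom called 0 of them. At an unadjusted p under 0.05 stood 4 of the 141, or 2.84% beside 3.64% of all genes. The groups did not overlap in 9, or 6.38% beside 7.95% of all genes, with 5 higher and 4 lower, where 3.78% of all genes were higher and 4.18% lower. Of the 141, 64 had positive and 77 negative log2 fold changes, with a median of -0.023 beside 0.00076 over all genes.

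Upstream of NFAT, the 16 genes of calcium entry and calcineurin had a median log2 fold change of -0.020, with 7 positive and 9 negative. Orai3, a plasma membrane calcium channel, had the smallest p, at 20.4 ± 0.920 CPM in STAT3+ CM and 17.1 ± 0.790 CPM in STAT3- CM (SD, n = 3 each; edgeR log2 fold change 0.25 with SE 0.13, adjusted p = 0.989), and was the only gene of the list whose groups did not overlap. Orai2 (-0.19) and Itpr3, a calcium release channel of the endoplasmic reticulum (-0.28), came next. Among 9 tested inhibitors and export kinases of NFAT the median was -0.055, with 4 positive and 5 negative. Homer3, a scaffold that competes with calcineurin for NFAT (0.42), the calcineurin inhibitor Cabin1 (-0.26) and the kinase Dyrk1a (-0.20), which phosphorylates NFAT, had the smallest p-values, and their groups overlapped.

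Upstream of EGR and NR4A, 25 genes of the ERK, SRF, CREB and MEF2 steps had a median of -0.054, with 10 positive and 15 negative. Creb1 (-0.19) and Mrtfb, a cofactor of serum response factor (-0.27), were among the 3 with the smallest p. Among 12 EGR corepressors and feedback inhibitors of ERK the median was -0.0099, and Dusp6 (-0.35), Dusp4 (-0.32) and Dusp5 (0.19), phosphatases that act on MAP kinases, led by p with overlapping groups.

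Other immediate early genes went both ways, 12 positive and 12 negative of 24, with a median of -0.011. Jun, a subunit of AP-1, the partner of NFAT on many promoters, was at 69.3, 67.5 and 62.0 CPM in STAT3+ CM and 49.9, 45.6 and 49.7 CPM in STAT3- CM (edgeR log2 fold change 0.45 with SE 0.12, adjusted p = 0.702). All 3 STAT3+ CM libraries lay above all 3 STAT3- CM libraries, with a gap larger than the range within either group. Klf4, which restrains proliferation of CD8+ T cells, was at 2.56, 3.31 and 3.59 CPM in STAT3+ CM and 4.88, 5.34 and 7.67 CPM in STAT3- CM (edgeR log2 fold change -0.91 with SE 0.25, adjusted p = 0.778), also without overlap. Zfp36, an RNA-binding protein that destabilises cytokine transcripts, came next by p (0.27). Jun and Klf4 were 2 of the 4 listed genes with an unadjusted p under 0.05.

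Reported targets did not pass either. Of 14 anergy genes linked to EGR2, EGR3 and NFAT, 6 had positive and 8 negative values, with a median of -0.066. Ndrg1, an anergy factor described in mouse T cells, was at 27.2, 35.7 and 28.4 CPM in STAT3+ CM and 63.8, 37.6 and 36.9 CPM in STAT3- CM (edgeR log2 fold change -0.60 with SE 0.22, adjusted p = 0.989), and Nrp1, the neuropilin 1 receptor, at 10.4, 16.6 and 23.9 CPM in STAT3+ CM and 31.1, 26.1 and 24.9 CPM in STAT3- CM (edgeR log2 fold change -0.68 with SE 0.25, adjusted p = 0.989). In both the groups lay apart by a narrow margin. Tob1, an inhibitor of proliferation, came next by p (-0.14). Of 15 tested cytokine and surface genes activated by NFAT, 10 were positive, with a median of 0.12. In STAT3+ CM, leaving out replicate 1 gave a median of 0.27, replicate 2 one of -0.011 and replicate 3 one of -0.041, and in STAT3- CM leaving out replicate 3 gave -0.025 and replicate 1 gave 0.21. The list was led by p by the early activation marker Cd69 (0.19), Tnf (0.32) and the chemokine gene Ccl4 (0.43). Of 17 tested exhaustion genes linked to NFAT and NR4A, 8 were positive and 9 negative, with a median of -0.066, and Maf (-1.18, below 1 CPM in each library), Havcr2 (-0.42) and Tigit (0.34) had the smallest p-values. Of 10 tested neuronal activity genes, the setting in which Arc is best known, 3 were positive and 7 negative with a median of -0.17, led by p by Pcsk1 (-0.50), Homer1 (-0.23) and Npas4 (-0.42), and in none did the groups lie apart. That median was 0.026 without STAT3+ CM replicate 1, -0.0042 without STAT3- CM replicate 1 and -0.38 without STAT3+ CM replicate 3.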

How the data were processed

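Polyadenylated RNA of 6 libraries was sequenced after a directional NEBNext Ultra II preparation, per the labels' protocols. The authors deposited raw read counts, whole numbers for every gene and library. The submitters' processing notes list TopHat2 2.0.10 with Bowtie 1.0.0, Cufflinks 2.2.1, SAMtools 0.1.19, FastQC and the build GRCm39. Which program counted the reads, with what annotation, strand setting and filter, is not given in the sources used here. The lowest gene total was 40, so genes with fewer reads have no row. Counts were filtered with filterByExpr (14319 genes kept), scaled by TMM and tested with edgeR 4.0.16 in R 4.3.3 (glmQLFit with legacy off and robust on, glmQLFTest, two-sided), with Benjamini-Hochberg adjustment over all genes tested and a threshold of 0.05. The workflow was tested on simulated data. The SE was obtained by dividing the absolute log2 fold change by the root of the F statistic. Lengths came from GENCODE vM21 and start-site sequences from RefSeq (GRCm38.p6), which were read for 6 of the members. No coordinates were joined to the counts. Log2 CPM used a prior count of 2.

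Members and lists were chosen with earlier results of these data known. The text names the members, Egr4 and Nfat5, the 3 genes of each list with the smallest p, the 2 most abundant markers of each cell type, and for Arc, Egr2, Nr4a1 and Nfatc1 the 2 genes with the highest r among genes of at least 5 CPM with a named symbol. Some genes that this rule names are not reported here. The dendritic cell markers other than Ccr7 and Cd74, Map2 and the comparison of Egr2 with cytokine genes in the closing section were picked with the values in view. The alternatives were RLE, upper-quartile and no scaling factors, no filter or a minimum of 1 CPM in 3 libraries, limma-voom (limma 3.58.1), DESeq2 1.42.0, edgeR's older quasi-likelihood fit, a block for the replicate number, each library left out, library totals only or median transcript length for the levels per length, and, added after the data were seen, 2 outlying libraries left out together. The labels do not say whether replicates came from separate mice or cultures, and p-values then reflect only the spread between these libraries, which may be technical. Permutation tests of correlations were exact and two-sided.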

Additional observations from a re-analysis of the deposited data

How the results depend on the processing

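Of the 9 genes taken by name, none passed an adjusted p of 0.05 in any of 16 alternatives, with a lowest adjusted p of 0.467. Where single libraries were left out, log2 fold changes ran from -0.26 to 0.14 for Nr4a2, -0.081 to 0.38 for Nr4a3, -0.36 to 0.26 for Egr2, -0.12 to 0.090 for Nfatc1 and -0.21 to 0.048 for Nfatc3, so their signs are not settled; the cause was not tested. Nr4a2 was also positive with upper-quartile factors (0.0027) and without the outlying pair of libraries, STAT3- CM replicate 3 with STAT3+ CM replicate 1 (0.26), and Nfatc1 was negative with library totals only (-0.017). Nr4a1, Egr1, Egr3, Nfatc2 and Arc kept their sign in all alternatives, but without single libraries Nr4a1 ran from 0.024 (without STAT3- CM replicate 2) to 0.37 (without STAT3- CM replicate 3), Egr1 from 0.13 to 0.43, Egr3 from 0.15 to 0.48, Nfatc2 from -0.31 to -0.070 and Arc from -1.31 to -0.84. The count of genes called over the whole table was 0 with all libraries, 48 with DESeq2, 0 to 18 without single libraries (18 without STAT3- CM replicate 3 and 1 without STAT3- CM replicate 1) and 10 without that outlying pair. The lists had 0 calls in every alternative. Without single libraries the medians turned sign in 5 lists, running from -0.041 to 0.27 for the cytokine and surface genes, -0.38 to 0.026 for the neuronal activity genes, -0.086 to 0.053 for calcium entry and calcineurin, -0.082 to 0.082 for other immediate early genes and -0.12 to 0.016 for anergy genes. That of the ERK, SRF, CREB and MEF2 list was -0.099 with library totals only and between -0.13 and -0.013 without single libraries. Libraries of equal replicate number had correlations of -0.261, 0.281 and 0.182 across genes, taken as deviations from their group means. Unequal numbers were not compared, so these values cannot show whether the libraries were paired. With the replicate block 0 genes were called and the log2 fold change of Egr3 was 0.32. With the median transcript length the level of Egr2 was 56.2 and that of Nfatc3 43.7 CPM per kb, which changes the order of the levels. The SE of the log2 fold change, 0.14 to 0.32 over the 9 genes, sets the precision of these values.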

Other observations

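The level of Egr2 was set beside those of the 15 tested cytokine and surface genes activated by NFAT, after the values had been seen. Il2, the T cell growth factor that NFAT helps to activate, stood at 34.9, 83.0 and 78.6 CPM in STAT3+ CM and at 109, 59.8 and 28.1 CPM in STAT3- CM. In STAT3- CM the libraries of Il2 had the same order as those of Egr2. In STAT3+ CM both genes were lowest in replicate 1, while Il2 was highest in replicate 2 and Egr2 in replicate 3. Because the pair was chosen with these values in view, the correlations are given as descriptions, with no test. Over the 6 libraries log2 CPM of Il2 and Egr2 had Pearson's r = 0.97 and Spearman's rho = 0.89, and r was 0.98 without the 2 libraries farthest from the median of Egr2. Of all 9321 genes compared, 195, or 2.09%, had an r of at least 0.9 with Egr2. Among the cytokine and surface genes Il3 (r = 0.93) and the chemokine gene Xcl1 (0.94) passed that level too. Below it were Ccl4 (0.88), Ccl3 (0.87), Tnfsf11, which encodes RANKL (0.85), Tnf (0.83), Csf2 (0.80), Cd40lg (0.61) and Ifng (0.55). Without the same 2 libraries r was 0.95 for Il3, 0.78 for Xcl1 and 0.62 for Tnfsf11. It was then 0.52 for Ccl4, 0.41 for Ccl3, 0.71 for Tnf, 0.77 for Cd40lg and 0.94 for Ifng, but -0.90 for Csf2. Fasl went the opposite way (-0.80, but 0.62 without those 2 libraries), and r was -0.27 for Il2ra, 0.017 for Tnfrsf4, 0.34 for Cd69 and 0.39 for Il13. The log2 fold changes between the media were 0.00065 for Il2 (SE 0.46) and -0.12 for Egr2 (SE 0.32), while each gene differed at least 2-fold between replicates of the same medium.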
